A study of Arabidopsis thaliana with 6 samples.

Results

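The transcripts described here are those of the plastid genome, the circular DNA that chloroplasts and other plastids keep apart from the nucleus. Members were all gene identifiers that begin with ATCG and have a mean of 10 or more counts over the 6 libraries, which gave 124 of the 133 plastid identifiers among 37184 in all. Of the 9 plastid identifiers left out, 1 had no count in any library, and the nearest to the limit was ATCG01290, with a mean of 5.83 counts. The nearest members inside it were ATCG00980 and ATCG00850, with means of 10.7 and 14.7 counts.

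Counts came from 3 libraries labelled *nol12-4* and 3 wild-type (WT, Col-0) libraries of whole *Arabidopsis thaliana* seedlings, 1 per biological replicate, and values are given in the order of replicates 1, 2 and 3. All seedlings were 14 days old and had grown on half-strength salt medium with sucrose, with 16 h of light at 22 °C and 8 h of dark at 19 °C. *nol12-4* is a single T-DNA insertion line in *AtNOL12* (AT1G11240), a nucleolar protein gene of ribosomal RNA processing, and the comparison asks which transcripts differ between mutant and WT plants. *AtNOL12* itself had 1186, 770 and 2142 counts in the 3 *nol12-4* libraries, against 663, 642 and 894 in WT. The log2 fold change was 0.82 (SE 0.30, adjusted p = 0.191 in the edgeR quasi-likelihood test), so its count was not lower in the libraries labelled *nol12-4*, and every direction below rests on those labels. The count sums reads over the whole gene, on both sides of an insertion, and does not by itself check the label. The study also blotted *AtNOL12* mRNA of this line, a measurement not analysed here.

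Plastid genes are transcribed by a bacterial-type RNA polymerase, whose core is encoded in the plastid and whose sigma factors come from the nucleus, and by phage-type polymerases encoded in the nucleus. Most are read as long transcripts of several genes, which nuclear-encoded RNA-binding proteins and ribonucleases then cut, trim and protect. The products serve photosynthesis, translation and transcription within the plastid, and in green tissue they make up a large part of all cellular RNA. The reference plastid genome (TAIR10.1, RefSeq) is 154478 bp long and carries 131 annotated genes, 87 coding for proteins, 37 for tRNAs and 7 for rRNAs. By distinct gene symbols, its protein-coding genes include 15 of photosystem II (psb), 5 of photosystem I (psa), 6 of the cytochrome b6f complex (pet), 6 of ATP synthase (atp), 11 of the NDH complex (ndh), 4 of the RNA polymerase (rpo), and 12 and 9 of the small and large ribosomal subunits (rps, rpl).

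The reference does not pair these symbols with the ATCG identifiers of the count files, so members are given by identifier. Notes in the reference on nuclear genes of similar protein name 6 of them. These are ATCG00430, ATCG00530 (CemA-like proton extrusion protein-related), ATCG00660 (ribosomal protein L20), ATCG00670 (plastid-encoded CLP P), ATCG00750 (ribosomal protein S11) and ATCG01310 (ribosomal protein L2). ATCG00430 is noted under the old name photosystem II reaction center protein G, but the nuclear gene that carries the note (AT5G11770) encodes a subunit of NADH dehydrogenase, so it is described here by that similarity and not as a photosystem gene. An identical second copy was found for 33 of the 131 reference genes (such copies lie in the inverted repeat). Pairs of reads with several alignments were not counted to any gene, so genes with such copies may be under-counted in the plastid totals.

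The 6 libraries held 56627497 to 75001252 counts on genes. In this RNA depleted of rRNA, plastid genes took about as many of them as all nuclear genes together. Their share was 52.5%, 46.2% and 48.6% in the 3 *nol12-4* libraries, against 55.9%, 55.5% and 50.0% in the WT libraries. The groups overlapped, because *nol12-4* replicate 1 lay above WT replicate 3. The mean was 49.1 ± 3.22% in *nol12-4* and 53.8 ± 3.28% in WT (SD, n = 3 each), a difference of −4.71 percentage points (exact permutation test, two-sided, p = 0.2). With 3 against 3 libraries this test cannot go below 0.1. At this depth counting error is small beside the spread between libraries: the 95% Wilson interval of the share in *nol12-4* replicate 1 ran from 52.53 to 52.55%. Such intervals cover counting error only.

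Against the other organelle genome the plastid total stood lower in *nol12-4*. There were 63.9, 52.7 and 63.5 plastid counts per mitochondrial count in the 3 *nol12-4* libraries, against 78.9, 78.1 and 67.3 in WT. All 3 *nol12-4* values lay below all 3 WT values. On the log2 scale the ratio was 5.90 ± 0.16 in *nol12-4* and 6.22 ± 0.13 in WT (SD, n = 3 each), a difference of −0.32 (exact permutation test, two-sided, p = 0.1, the smallest this design can give). The mitochondrial share itself was 0.822%, 0.877% and 0.765% of gene counts in *nol12-4*, against 0.708%, 0.711% and 0.744% in WT, without overlap, whereas the plastid share of gene counts overlapped.

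A single gene carried much of the plastid total. ATCG00020 had 14941929, 9889612 and 14825270 counts in the 3 *nol12-4* libraries, against 19575700, 16422991 and 15053991 in WT. It alone was 20.1%, 17.5% and 20.8% of all gene counts in *nol12-4*, against 26.1%, 23.5% and 22.3% in WT, and here the groups did not overlap. The other plastid genes together were 32.4%, 28.7% and 27.8% of gene counts in *nol12-4*, against 29.8%, 32.0% and 27.7% in WT, with the groups intermixed. Without ATCG00020 in the totals, the plastid share was 36.8 ± 3.24% in *nol12-4* and 39.3 ± 3.22% in WT (SD, n = 3 each), a difference of −2.44 points (exact permutation test, p = 0.3), and the log2 ratio to mitochondrial counts differed by −0.20 (exact permutation test, p = 0.2). The normalised log2 fold change of ATCG00020 was −0.40 (SE 0.23, adjusted p = 0.375, edgeR).

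**Figure D1:**
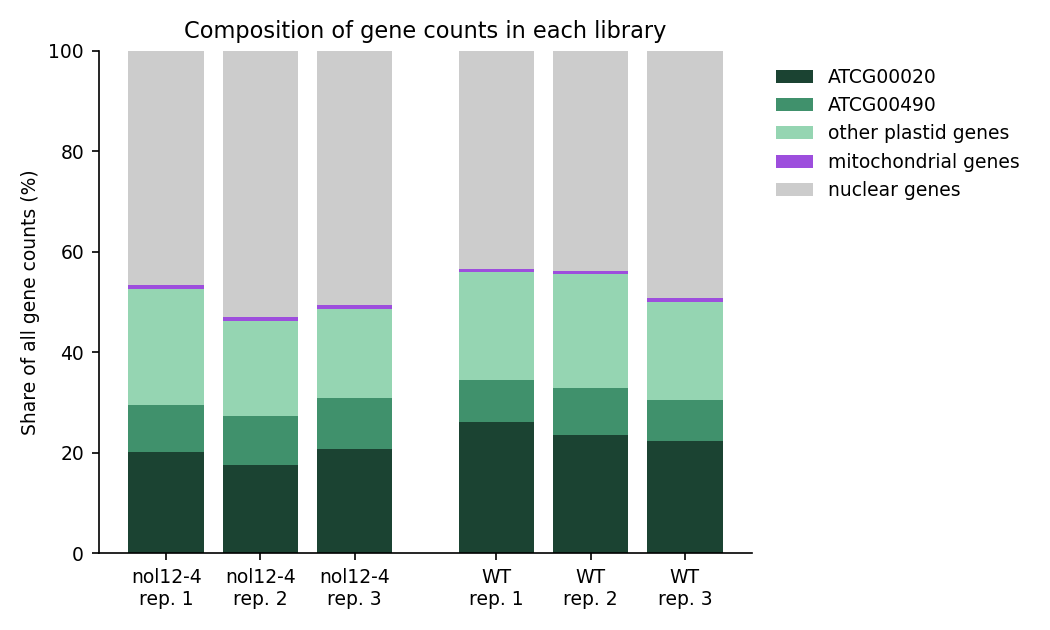
Stacked bars give the share of all gene counts (%, y axis) that each library, *nol12-4* replicates 1 to 3 on the left and WT replicates 1 to 3 on the right, spent on ATCG00020, ATCG00490, the other plastid genes, mitochondrial genes and nuclear genes. ATCG00020 took 17.5 to 20.8% in *nol12-4* and 22.3 to 26.1% in WT, while the plastid total overlapped between the groups.

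ATCG00490 came next, and its place in the plastid total was larger in *nol12-4*. It had 6892370, 5593363 and 7163933 counts in the 3 *nol12-4* libraries, against 6221380, 6477625 and 5473494 in WT, and made up 17.7%, 21.4% and 20.6% of plastid counts in *nol12-4*, against 14.8%, 16.7% and 16.2% in WT. Every *nol12-4* library lay above every WT library. The mean was 19.9 ± 1.96% in *nol12-4* and 15.9 ± 0.965% in WT (SD, n = 3 each), a difference of 3.98 points (exact permutation test, p = 0.1). ATCG00020 made up 39.6 ± 2.68% of plastid counts in *nol12-4* and 44.6 ± 2.18% in WT, a difference of −4.94 points (exact permutation test, n = 3 each, p = 0.2). These shares are parts of one total, so one falls where another gains. With ATCG00020 taken out of the total, ATCG00490 stood at 33.0 ± 3.85% in *nol12-4* and 28.7 ± 0.75% in WT (p = 0.3 in the exact permutation test). Scaled to all genes, ATCG00490 had a log2 fold change of 0.08 (SE 0.22, adjusted p = 0.861, edgeR).

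The other 122 members were spread over a wide range. ATCG00340, ATCG00350 and ATCG00680 followed in mean count, and the 5 highest members together held 68.3% of the mean plastid total. A mean of 1000000 counts or more was reached by 4 members, 100000 or more by 41, 10000 or more by 78 and 1000 or more by 92, which left 32 members under 1000. Counts were not corrected for gene length, since no length is paired with the identifiers, and therefore do not rank the genes by transcript number.

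Within the plastid total most members overlapped between the groups. As a share of plastid counts, 15 of 124 members were higher in every *nol12-4* library than in every WT library, 10 were lower, and 99 overlapped. Among all 21705 tested genes divided by the plastid total in the same way, 24.9% were above WT without overlap and 2.98% below, with a plastid total that was on average lower in *nol12-4*. That scaling moved the median log2 fold change of all tested genes to 0.22. The 24.9% and 2.98% are therefore no background for the shares of members. The members above WT included ATCG00670, the plastid-encoded subunit of the Clp protease that degrades proteins in the chloroplast stroma. It held 0.688%, 0.623% and 0.596% of plastid counts in the 3 *nol12-4* libraries, against 0.515%, 0.540% and 0.528% in WT. Below WT was ATCG00430, with 0.256%, 0.268% and 0.252% in *nol12-4*, against 0.305%, 0.293% and 0.280% in WT. All of the 10 members below WT except ATCG00500 bore an identifier adjacent to another of the 10. The runs were ATCG00430 and ATCG00440, ATCG00550, ATCG00560 and ATCG00570, ATCG00690 and ATCG00700, and ATCG00720 and ATCG00730. Adjacent identifiers were also found among the 15 members above WT. They were ATCG00780 and ATCG00790, ATCG00810 and ATCG00820, ATCG00930 and ATCG00940, and ATCG01270 and ATCG01280. The place of these members in the genome was not read here, and no clustering was tested. Genes of 1 long transcript would not be independent of each other.

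**Figure D2:**
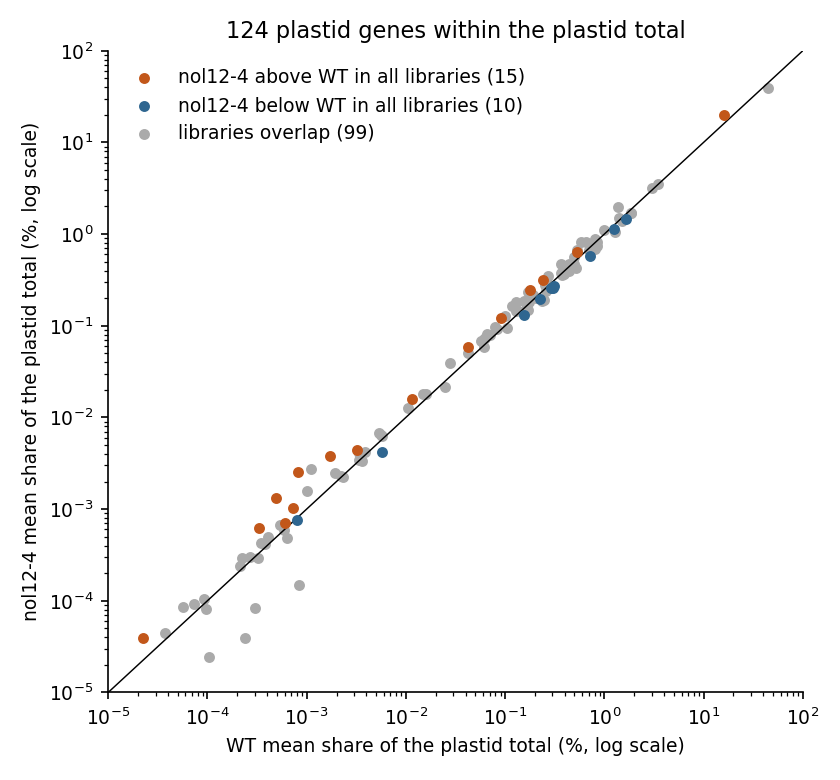
Each point is 1 of 124 plastid genes, placed by its mean share of plastid counts in WT (x axis, %, log scale) and in *nol12-4* (y axis, %, log scale), with the line of equal shares. In every library 15 members were above WT, farthest from the line ATCG00930 at 0.00252% in *nol12-4* and 0.000826% in WT, 10 were below, and 99 overlapped between the groups.

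When each library was scaled to all genes (TMM factors), edgeR tested 123 of the 124 members and called none at an adjusted p of 0.05 over all 21705 tested genes, where 0.226% were called higher and 0.0691% lower. Before adjustment, p was under 0.05 for 3 members on the higher side, against 12.1% of all tested genes, and for 4 on the lower side, against 7.91%. DESeq2, the tool of the study, called 2 of 121 members higher, against a background of 6.23%, and 2 lower, against 3.22%, over 24085 genes. The members called by DESeq2 and the shares at unadjusted p were thus at or under the background, so these counts are no result about the plastid genes as a set. After normalisation 3 members lay above WT without overlap, where 14.5% of all tested genes did so, and 10 lay below, where 11.6% did. With the plastid total as library size, edgeR called 1 member higher (ATCG00930), where 4.28% of all tested genes were, and none lower, where 0.392% were. Before adjustment 6 members were higher at p under 0.05 in that scaling, against 20.2% of all tested genes, and 1 lower, against 2.63%. The shares of all genes in that scaling carry its upward shift.

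The widest of the changes called by DESeq2 was that of ATCG00930, a gene of low count. It had 770, 866 and 784 counts in the 3 *nol12-4* libraries, against 222, 330 and 370 in WT. Every *nol12-4* library lay well above every WT library. In CPM, counts after TMM scaling to libraries of equal size, this was 11.8 ± 2.60 in *nol12-4* and 4.53 ± 1.25 in WT (SD, n = 3 each). ATCG00930 rose by a log2 fold change of 1.37 (SE 0.30, adjusted p = 0.000309) in DESeq2, while edgeR gave 1.38 (SE 0.26, adjusted p = 0.0683). DESeq2 called it with any 1 of the 6 libraries left out (log2 fold change 1.16 to 1.55, adjusted p = 4.59e-05 to 0.0174).

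ATCG01200 was the other member that DESeq2 called higher. It had 1061, 1275 and 1356 counts in the 3 *nol12-4* libraries, against 582, 629 and 744 in WT, again with no overlap. Its level was 17.9 ± 3.70 CPM in *nol12-4* and 9.57 ± 1.46 CPM in WT (SD, n = 3 each). ATCG01200 rose by 0.89 on the log2 scale in DESeq2 (adjusted p = 0.00622), and edgeR gave 0.90 (SE 0.20, adjusted p = 0.0834). The DESeq2 call of ATCG01200 was lost without *nol12-4* replicate 2 (0.72, adjusted p = 0.0949), WT replicate 1 (0.79, adjusted p = 0.102) or WT replicate 2 (0.88, adjusted p = 0.0539). Close to these stood ATCG00940, with 308, 606 and 305 counts in the 3 *nol12-4* libraries, against 162, 146 and 236 in WT. *nol12-4* replicate 2 was the highest of its libraries by far, and its log2 fold change of 1.21 (SE 0.42) did not pass either test (adjusted p = 0.179 in edgeR and 0.0593 in DESeq2). ATCG01190 had a like pattern, with 480, 1344 and 615 counts in the 3 *nol12-4* libraries, against 321, 327 and 580 in WT, and its *nol12-4* replicate 1 lay under WT replicate 3 after scaling to the same depth in CPM (6.52 against 8.65). ATCG00320, with 304, 182 and 138 counts in *nol12-4*, against 138, 130 and 108 in WT, completed the 5 highest log2 fold changes, at 0.71 (SE 0.33, adjusted p = 0.284, edgeR). It was 0.41 without *nol12-4* replicate 1, and DESeq2 called it without *nol12-4* replicate 3 (0.98, adjusted p = 0.0116). Without *nol12-4* replicate 2 the edgeR values were 0.61 for ATCG00940 and 0.26 for ATCG01190, while DESeq2 called ATCG00940 without *nol12-4* replicate 3 (adjusted p = 0.0143) or WT replicate 3 (adjusted p = 0.0217). Which members have a second copy was not read, so ATCG00930, ATCG01200, ATCG00940 and ATCG01190 may not be separate genes. Reads shared by such copies were not counted, so their counts may be uncertain.

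The 2 members that DESeq2 called lower were abundant ones, and their log2 fold changes were smaller in size than those of the 2 called higher. ATCG00550 had 220549, 158803 and 191544 counts in the 3 *nol12-4* libraries, against 298648, 275269 and 241224 in WT. This was 2730 ± 260 CPM in *nol12-4* and 3976 ± 330 CPM in WT (SD, n = 3 each), with a log2 fold change of −0.55 in DESeq2 (adjusted p = 0.0155) and −0.54 in edgeR (SE 0.20, adjusted p = 0.204). ATCG00580 had 227047, 209348 and 236533 counts in *nol12-4*, against 312449, 290129 and 309287 in WT. The log2 fold change of ATCG00580 was −0.47 in DESeq2 (adjusted p = 0.0323) and −0.46 in edgeR (SE 0.20, adjusted p = 0.255). Neither gene overlapped between the groups in CPM. The DESeq2 call of ATCG00550 was lost without *nol12-4* replicate 2, WT replicate 1 or WT replicate 2 (adjusted p = 0.118 to 0.193), and that of ATCG00580 without any library other than *nol12-4* replicate 2 (adjusted p = 0.0715 to 0.239). With the plastid total as size factor DESeq2 gave −0.31 for ATCG00550 and −0.22 for ATCG00580, neither past the threshold (adjusted p = 0.325 and 0.641). Within the plastid total only ATCG00550 kept this separation, with 0.566%, 0.607% and 0.552% in *nol12-4*, against 0.713%, 0.710% and 0.715% in WT, whereas ATCG00580 overlapped.

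**Figure D3:**
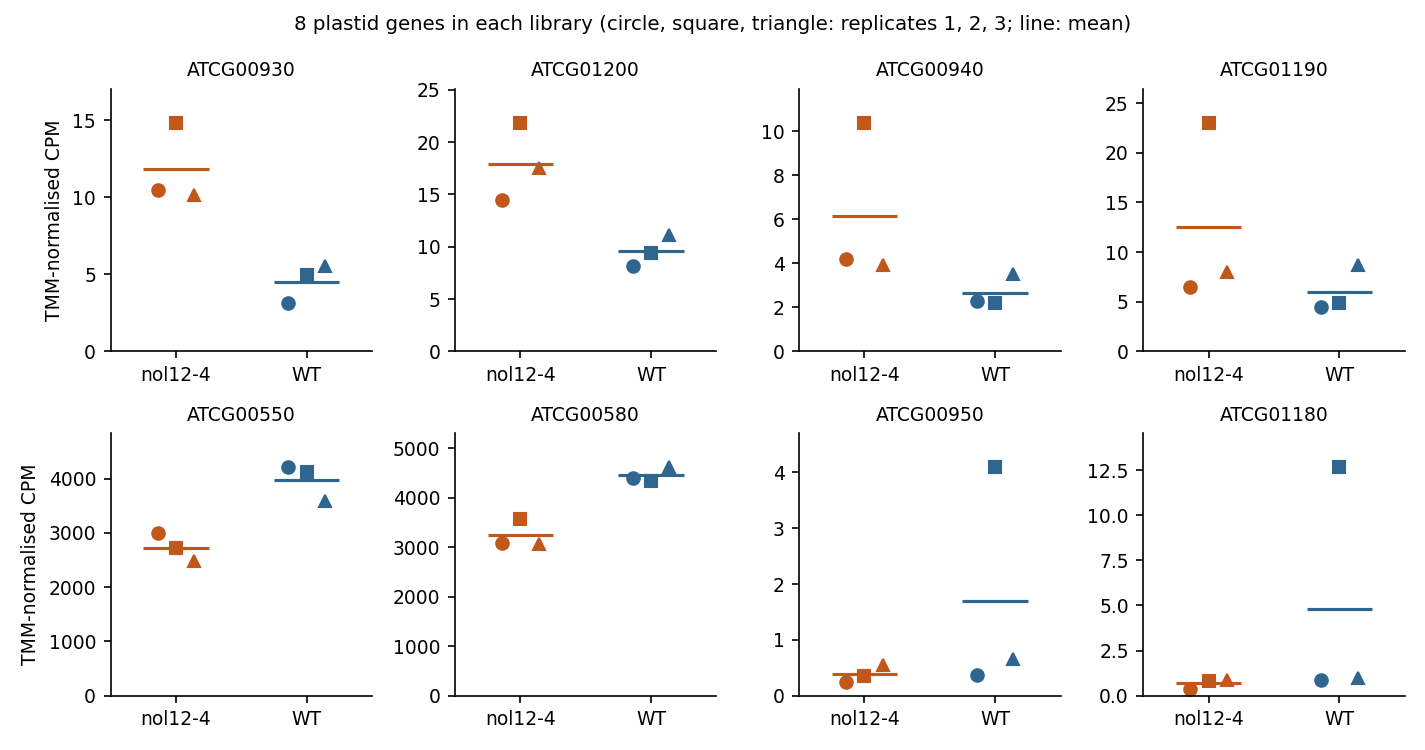
TMM-normalised CPM (y axes, from 0) of 8 plastid genes in each library, *nol12-4* left and WT right in each panel, with circle, square and triangle for replicates 1, 2 and 3 and a line at the mean. ATCG00930, ATCG01200 and ATCG00940 were higher in every *nol12-4* library and ATCG00550 and ATCG00580 lower, while the WT means of ATCG00950 and ATCG01180 rested on WT replicate 2.

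The lowest fold changes came from 1 library. ATCG01210 had 11, 12 and 15 counts in the 3 *nol12-4* libraries, against 5, 266 and 7 in WT, and ATCG01180 had 28, 47 and 67 in *nol12-4*, against 61, 844 and 64 in WT. ATCG00950 had 18, 21 and 43 counts in *nol12-4*, against 26, 273 and 44 in WT. In each of them WT replicate 2 stood above every other library, and the other WT libraries lay near or within the *nol12-4* values. These 3 and ATCG00920, with 9, 7 and 8 counts in *nol12-4*, against 2, 113 and 5 in WT, were the 4 members whose highest library was over 5 times the next in CPM (6.23 to 19.4 times). The log2 fold changes were −2.91 (SE 1.43) for ATCG01210, −2.82 (SE 1.08) for ATCG01180 and −2.13 (SE 0.91) for ATCG00950, with adjusted p of 0.305, 0.210 and 0.249 in edgeR. Without WT replicate 2 the values were 1.05, −0.41 and −0.40, so the direction of ATCG01210 turned. ATCG00920 was under the filter of edgeR. DESeq2 called ATCG00950 and ATCG01210 without WT replicate 1 or WT replicate 3, and ATCG01180 without WT replicate 1, fits that keep WT replicate 2. Why WT replicate 2 was high in these members was not tested, and whether any of them are copies of each other was not read.

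The remaining members of the 5 lowest were ATCG00700 and ATCG00260. ATCG00700 had 1923, 855 and 1554 counts in the 3 *nol12-4* libraries, against 2577, 2111 and 1864 in WT, a log2 fold change of −0.65 (SE 0.23, adjusted p = 0.176 in edgeR and 0.0948 in DESeq2). It lay below WT without overlap both in CPM and within the plastid total, and DESeq2 called it without *nol12-4* replicate 1 (−0.89, adjusted p = 0.0232). ATCG00260 had 219, 134 and 127 counts in *nol12-4*, against 271, 266 and 188 in WT, a log2 fold change of −0.62 (SE 0.29, adjusted p = 0.280, edgeR), with 1 *nol12-4* library above the lowest WT library.

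The 6 members with a product in the reference gave no call. ATCG00430, similar to the NADH dehydrogenase subunit, had 99588, 69988 and 87528 counts in the 3 *nol12-4* libraries, against 127962, 113447 and 94424 in WT, and its log2 fold change was −0.42 (SE 0.20, adjusted p = 0.302 in edgeR and 0.124 in DESeq2). In CPM its libraries did not overlap, and DESeq2 called it without WT replicate 3 (−0.52, adjusted p = 0.0270). ATCG00530, an envelope protein related to CemA, varied most of these 6 within a group: it had 379093, 153069 and 230400 counts in *nol12-4*, against 323930, 327776 and 215963 in WT (log2 fold change −0.24, SE 0.32). The edgeR value of ATCG00530 was −0.60 without *nol12-4* replicate 1, −0.05 without *nol12-4* replicate 2, −0.13 without *nol12-4* replicate 3, −0.12 without WT replicate 2 and −0.40 without WT replicate 3. ATCG00670, the Clp protease subunit, was at 3035 ± 531 CPM in *nol12-4* and 2946 ± 253 CPM in WT (SD, n = 3 each), so the higher share within the plastid total had no counterpart when scaled to all genes (log2 fold change 0.04, SE 0.22). The ribosomal proteins L20 (ATCG00660), S11 (ATCG00750) and L2 (ATCG01310) had log2 fold changes of −0.04 (SE 0.22), 0.08 (SE 0.18) and 0.10 (SE 0.20), and each overlapped between the groups. In the reference genome rpl2 has 2 copies, so the 2091, 1506 and 3165 counts of ATCG01310 in *nol12-4*, against 2026, 1799 and 2248 in WT, are uncertain. Its level was 31.7 ± 8.11 CPM in *nol12-4* and 29.7 ± 3.43 CPM in WT (SD, n = 3 each). Of the most abundant members, ATCG00340, ATCG00350 and ATCG00680 had log2 fold changes of −0.21, −0.13 and −0.35 (SE 0.22, 0.22 and 0.21), with adjusted p of 0.621, 0.766 and 0.395 in edgeR.

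**Figure D4:**
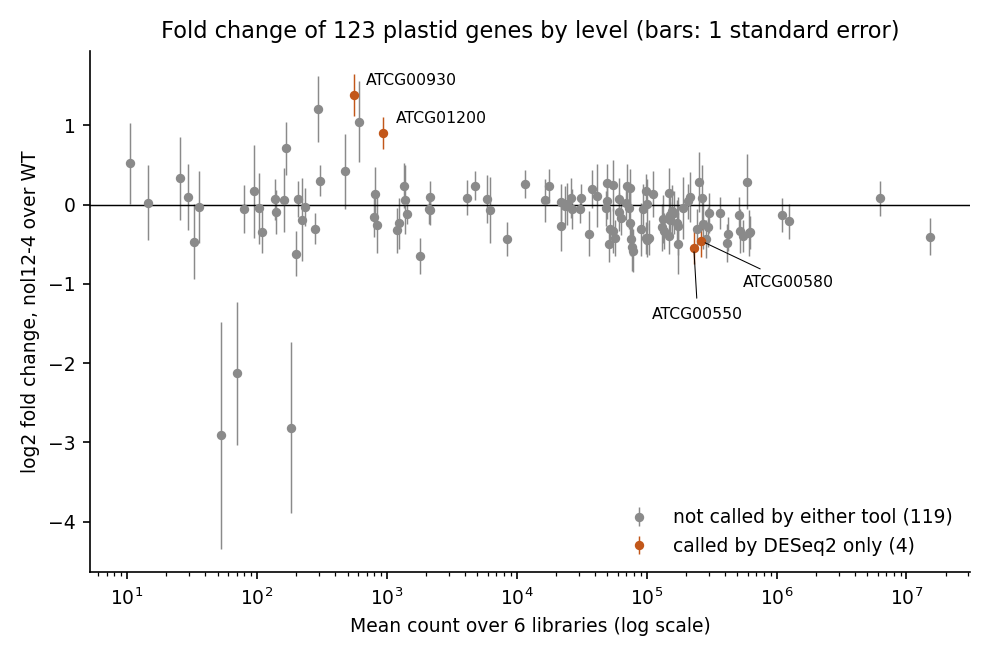
The log2 fold change of *nol12-4* over WT (y axis, edgeR, bars of 1 SE) is set against the mean count over 6 libraries (x axis, log scale) for the 123 tested plastid genes. Points are grey where neither tool called the gene (119) and orange where DESeq2 did (4), with the lowest values, −2.91 to −2.13, at genes high in WT replicate 2 alone.

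Over the 123 tested members, 48 had a log2 fold change above 0 and 75 below, or 39% and 61%, where all tested genes had 49% and 51%. The median was −0.07, against −0.01 over all tested genes. In bins of mean count chosen after seeing the values, the lowest median was that of the most abundant members. Of 41 with a mean of 100000 counts or more, 9 were above 0 and the median was −0.23, while of 37 members from 10000 to 100000 counts 17 were above 0 (median −0.04), of 14 from 1000 to 10000 counts 6 (median −0.06), and of 31 tested members under 1000 counts 16 (median 0.02). The direction of the median depended on the scaling. It was 0.03 with library size alone and 0.14 with the plastid total as library size, settings that moved the median of all tested genes to 0.09 and 0.22, so the median of the members was below that of all genes in both settings.

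The median member differed more among libraries of 1 genotype than between the genotypes. Measured as log2 CPM minus the WT mean, the median member stood at 0.28, −0.28 and −0.33 in the 3 *nol12-4* libraries, against 0.05, 0.14 and −0.20 in WT, while the median of all tested genes stayed between −0.02 and 0.01 in every library. *nol12-4* replicate 1 was thus the highest of the 6 libraries and *nol12-4* replicate 3 the lowest. Without *nol12-4* replicate 1 the median log2 fold change was −0.32 and 17 of 123 members were above 0. Without *nol12-4* replicate 3 it was 0.00 with 62 above 0, and without WT replicate 3 it was −0.18. The SD of log2 CPM within a group had a median of 0.36 in *nol12-4* and 0.23 in WT over the members, where it was 0.26 in *nol12-4* and 0.26 in WT over all tested genes.

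**Figure D5:**
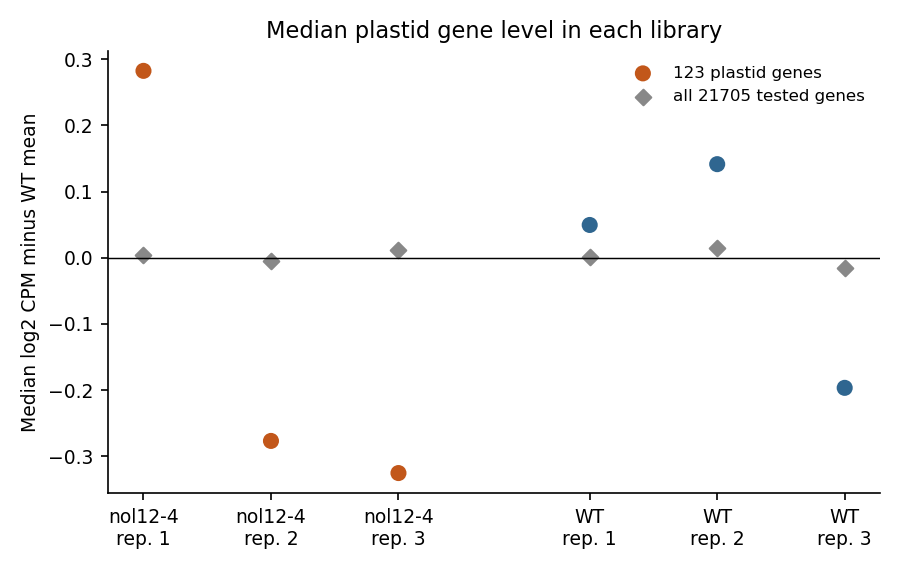
For each library, *nol12-4* left and WT right, the median over 123 plastid genes (circles) and over all 21705 tested genes (diamonds) of log2 CPM minus the WT mean is shown on the y axis. The plastid medians ran from −0.33 to 0.28 within *nol12-4* and from −0.20 to 0.14 within WT, while the medians of all genes stayed near 0.

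Nuclear genes that transcribe and process plastid RNA were read as a list of 34, all of them tested. edgeR called none, and before adjustment 3 were higher and 2 lower at p under 0.05, where 12.1% and 7.91% of all tested genes were. DESeq2 called 2 higher, where 6.23% of all its genes were, and 0 lower, where 3.22% were, so neither count exceeds the background. The median log2 fold change was −0.12, with 12 above 0 and 22 below. The sigma factor *SIGE* (AT5G24120, also *SIG5*), which guides the plastid polymerase under light and stress, had 7853, 5452 and 959 counts in the 3 *nol12-4* libraries, against 1258, 1348 and 823 in WT. Replicates 1 and 2 stood far above WT and replicate 3 within its range. *SIGE* rose by a log2 fold change of 2.08 in DESeq2 (adjusted p = 0.0110) and had 2.08 in edgeR (SE 0.69, adjusted p = 0.163). With 1 library left out DESeq2 called *SIGE* without *nol12-4* replicate 3 alone, and the call was lost without any other library (adjusted p = 0.0689 to 0.252). *CSP41A* (AT3G63140), a chloroplast RNA-binding protein that stabilises plastid transcripts, had 5449, 5764 and 5738 counts in *nol12-4*, against 3435, 3714 and 3263 in WT, with no overlap. *CSP41A* rose by 0.68 in DESeq2 (adjusted p = 0.0115), and edgeR gave 0.69 (SE 0.17, adjusted p = 0.0925). The DESeq2 call of *CSP41A* was lost without *nol12-4* replicate 2 (0.53, adjusted p = 0.0882) or WT replicate 1 (0.65, adjusted p = 0.145).

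The other sigma factors did not pass either test, and the same holds for the phage-type polymerases and the polymerase-associated proteins. *SIG4* had a log2 fold change of −0.45 (SE 0.19), *SCA3* (AT2G24120), a phage-type polymerase of plastids, −0.51 (SE 0.33), and *PTAC6* (AT1G21600), a subunit of the plastid polymerase complex, −0.67 (SE 0.26). *HCF173*, required for translation of a photosystem II protein, stood at 0.75 (SE 0.30) and *HCF107*, which protects transcript ends, at 0.95 (SE 0.43). Neither passed either test (adjusted p = 0.222 and 0.271 in edgeR, 0.132 and 0.170 in DESeq2). In both genes *nol12-4* replicate 3 lay within the WT range in CPM. For *emb2746* (AT5G63420), the plastid ribonuclease J, the counts were 1146, 961 and 3543 in the 3 *nol12-4* libraries, against 3278, 3389 and 3076 in WT (log2 fold change −0.88, SE 0.41). As with *SIGE*, *nol12-4* replicate 3 stood with WT and apart from *nol12-4* replicates 1 and 2.

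The make-up of the seedlings can move a plastid share, which overlapped between the groups here. In whole seedlings the number of green cells and the plastid RNA per cell cannot be told apart. Of 6 root markers all were above 0 (median log2 fold change 0.73), 5 lay above WT without overlap, where 14.5% of all tested genes did, and their summed level was 1020 to 1095 CPM in *nol12-4* and 648 to 897 CPM in WT. *PYK10* made up nearly all of that sum, with means of 1054 CPM in *nol12-4* and 765 CPM in WT. DESeq2 called 2 of the 6 root markers higher, where 6.23% of all its genes were, namely *EXPA7* and *SHV2* (*COBL9*), both genes of root hairs. Of 4 nuclear photosynthesis genes read as shoot markers all were above 0 (median 0.44) and 1, *RBCS1A*, lay above WT without overlap. Their summed level was 7328 to 11210 CPM in *nol12-4* and 5106 to 9011 CPM in WT. *CAB1* alone was at 1359, 1542 and 4662 CPM in the 3 WT libraries, and WT replicate 3 gave the highest WT sum. No defining marker of either list was at 0. Their part in the plastid share was not tested.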

How the data were processed

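Total RNA of 6 seedling libraries was depleted of rRNA and sequenced in paired, stranded mode by the authors, who aligned reads with HISAT2 (version 2.0.4) to TAIR10 and counted them per gene on the reverse strand with HTSeq (version 0.6.0). The deposited values are raw counts per gene, with no normalization. Summary lines (20.6 to 25.0% of all read pairs) were left out. Among them were the pairs aligned to more than 1 place, which made up 10.3 to 12.1% of all read pairs. Of 37184 identifiers, 36899 (99.2%) were found in the RefSeq table of TAIR10.1; the rest are organelle genes.

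The main test was edgeR (version 4.0.16, under R version 4.3.3; TMM, filterByExpr, glmQLFit with robust estimation, two-sided quasi-likelihood F test, genotype as the sole covariate) over all genes, with Benjamini-Hochberg adjustment at 0.05. The SE is the log2 fold change divided by the square root of F. DESeq2 (version 1.42.0) was the main alternative. Others were further scalings, no filter, a replicate block and each library left out. CPM are TMM-scaled, and log2 CPM used a prior count of 2. The procedure was tested on simulated data. P-values of edgeR and DESeq2 set the genotype difference against the spread between the deposited libraries, estimated with information from all genes. Totals and ratios were compared by exact permutation over libraries.

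Named genes were members called by edgeR or DESeq2, the 5 highest in mean count, the 5 highest and 5 lowest log2 fold changes, and those with a product in the reference. A rule to name the leading gene of each role, and its transcription unit, could not be applied, because the reference does not pair names with plastid identifiers. Shares of ATCG00020 and ATCG00490, members high in 1 library, bins of level and examples of non-overlap were chosen after seeing values. Members and lists were chosen with earlier results of these data known.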

Additional observations from a re-analysis of the deposited data

How the results depend on the processing

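The count of plastid genes called, 0 in edgeR, was 4 in DESeq2, 1 with library size alone, 1 with the plastid total as library size and 3 in DESeq2 with the plastid total as size factor (chosen after seeing the data); it was 0 with median-of-ratios factors, with TMM factors from nuclear genes and without a filter. Leaving out 1 library gave 0 to 10 over both tools: in edgeR 1 (ATCG00930) without *nol12-4* replicate 3 or WT replicate 3 and 0 otherwise, and in DESeq2 (added after seeing the data) 9, 2 and 5 without *nol12-4* replicates 1, 2 and 3, and 4, 1 and 10 without WT replicates 1, 2 and 3. The 4 and the 10 include ATCG00950 and ATCG01210, and the 4 also ATCG01180, members high in WT replicate 2 alone. Nuclear machinery genes called were 0 in edgeR, 2 in DESeq2, 4 in DESeq2 with the plastid total, and 0 to 9 with 1 library left out (7 in edgeR without *nol12-4* replicate 3). Of all genes edgeR called 1038 higher and 601 lower without *nol12-4* replicate 3, and 180 and 284 without WT replicate 3, where the 6 libraries gave 49 and 15 and the other 4 leave-outs 0. The plastid share differed by −6.60 to −3.24 points and its log2 ratio to mitochondrial counts by −0.39 to −0.23 with 1 library left out, ATCG00020 in the plastid total by −6.48 to −3.86 points and ATCG00490 by 3.24 to 5.09, and the median log2 fold change ran from −0.33 to 0.00. The cause of these shifts was not tested.

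Directions turned only for named genes that neither tool called on all 6 libraries. These were ATCG00340 (0.025) and ATCG00350 (0.10) with the plastid total, in both tools, and ATCG00660 (0.050 with library size alone, 0.17 with the plastid total in both tools, 0.10 in both tools without *nol12-4* replicate 3 and 0.0008 without WT replicate 2). With 1 library left out they were also ATCG00670 (−0.11 in edgeR and −0.12 in DESeq2 without *nol12-4* replicate 1, −0.027 and −0.028 without WT replicate 3, up to 0.12 otherwise), ATCG00750 (−0.0023 in DESeq2 without WT replicate 1), ATCG01210 (1.05 in both tools without WT replicate 2, otherwise down to −3.48 in edgeR) and ATCG01310 (−0.14 in both without *nol12-4* replicate 3, up to 0.22 otherwise).

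With replicate number as a block 0 plastid genes were called, the median was −0.10 and 1 gene of all was called. Same-numbered libraries did not all deviate together (correlations 0.16, −0.11 and 0.03 over all tested genes, and 0.63, −0.08 and −0.08 over plastid genes). With 3 libraries per genotype such correlations cannot tell whether the numbers pair the samples. Leaving out plastid rRNA and tRNA genes or inverted-repeat genes, and shares by role, were not run, for lack of names. Members under 1000 counts and 3 libraries per genotype limit what these data can show.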
